A study of Mus musculus with 10 samples.

Results

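Type I interferon-stimulated genes are switched on when interferon-alpha or interferon-beta binds its receptor on a cell. A list of 48 such genes was matched by symbol to the gene names of a macrophage expression table, and 47 of the 48 had a row among the 17279 genes listed. Ifit1bl1 had no row and was not analysed here. All 47 passed the filter on low counts, so that each was tested together with 16949 genes in all. The study asked how experimental stroke affects the macrophages of the gut, and the comparison described here is that of pMCAO (permanent middle cerebral artery occlusion, a stroke model without reperfusion) with sham surgery.

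Each library was made from lamina propria macrophages of the mouse small intestine, sorted by FACS as CX3CR1-GFP+ cells 24 h after surgery. The 5 sham and the 5 pMCAO libraries share the genotype C57BL6/J in the labels, which do not name the reporter allele, and no allele or agent separates the groups other than the surgery. Replicate 1 of each group carries the word pool in its name, without the number of mice pooled. The labels call the libraries biological replicates without saying how many mice each holds. CX3CR1 is also made by monocytes and by some dendritic cells, so the sort alone does not give macrophages only, and in bulk libraries fewer cells of a type cannot be told apart from less RNA per cell. Macrophage markers were present in every library. The markers Csf1r, the colony-stimulating factor receptor, and Adgre1, which encodes F4/80, were lowest in sham replicate 5, at 542 and 199 CPM (counts scaled to a common library total), where Cx3cr1 was also lowest, at 98.8 CPM.

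Total counts ranged from 18894151 to 60665972 in the sham group and from 6430643 to 28672285 in the pMCAO group, so that weakly expressed genes were measured less precisely after pMCAO. Immunoglobulin genes took 0.524% to 14.1% of the counts in sham libraries and 0.781% to 16.7% in pMCAO libraries. Sham replicate 5 and pMCAO replicate 4 stood apart in Xist, the RNA that silences an X chromosome in female cells, at 2237 and 4686 CPM. The other 8 libraries lay between 1.27 and 4.88 CPM. Several results on the 47 genes are therefore given with and without both. These are the median log2 fold change, the number lower at an unadjusted p under 0.05 and the number whose groups did not overlap. The log2 fold change of each of the 47 genes described in every library is also given both ways.

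Binding of a type I interferon to its receptor, made of IFNAR1 and IFNAR2, activates the kinases JAK1 and TYK2. These phosphorylate STAT2, which joins IRF9 in the complex ISGF3. ISGF3 binds the interferon-stimulated response element (ISRE) in promoters of genes whose products sense viral RNA, block translation, degrade RNA or stop viral entry. IRF7, itself induced, raises interferon production further, and USP18 dampens the receptor. In the gut, low tonic interferon signalling driven by commensal microbes is known to keep such genes at a basal level in mononuclear phagocytes.

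The ISRE core was searched as GAAA, any 2 bases and GAAA on either strand, from 250 bases before to 50 bases after the annotated RefSeq start (GRCm38.p6). RefSeq promoter windows were matched for 36 of the 48 genes. Of these, 21 (58.3%) held at least 1 core in a window, compared to 1079 of 27025 genes with an entry (3.99%). The core lay before the start in 17 genes and only after it in 4. The core of the GAS element, TTCNNNGAA, known from promoters of interferon-gamma targets, was found in 8 of 36 genes (22.2%) compared to 9.55% of all genes. A match is a description of letters, and overlapping matches of either motif were kept. The stretches that follow, read 5′ to 3′ on the strand of the gene and ending at the base before the start, are shown for genes whose values are described in every library and which held a core before the start; Slfn8, which has 2 annotated starts, is left out. Capitals mark the ISRE core on either strand.
Ifit1, chr19:34640775-34640888, plus strand: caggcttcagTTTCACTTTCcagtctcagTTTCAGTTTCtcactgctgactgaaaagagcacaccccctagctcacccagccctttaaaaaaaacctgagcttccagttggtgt
Oas3, chr5:120777660-120777759, minus strand: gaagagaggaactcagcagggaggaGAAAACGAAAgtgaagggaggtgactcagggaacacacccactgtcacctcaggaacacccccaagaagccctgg
Isg15, chr4:156200819-156200918, minus strand: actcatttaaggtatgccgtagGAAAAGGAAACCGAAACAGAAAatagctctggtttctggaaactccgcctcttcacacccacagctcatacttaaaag
Ifitm2, chr7:140955962-140956061, minus strand: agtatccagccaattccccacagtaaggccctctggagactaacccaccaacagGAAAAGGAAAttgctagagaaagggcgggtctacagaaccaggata
Stat2, chr10:128270266-128270497, plus strand: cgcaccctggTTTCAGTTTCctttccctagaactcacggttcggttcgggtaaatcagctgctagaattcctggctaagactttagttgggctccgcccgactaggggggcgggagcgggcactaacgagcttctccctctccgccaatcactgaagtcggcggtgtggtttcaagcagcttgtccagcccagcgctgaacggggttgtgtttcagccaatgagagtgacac

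The core nearest to the start ended 76 bases before it in Ifit1, which held 2 cores, and 66 bases before it in Oas3. Isg15 held 3 overlapping cores in a single run, the nearest ending 57 bases before the start. The single core of Ifitm2 ended 37 bases and that of Stat2 213 bases before the start. No core was found in the windows of Irf7, Ifitm1 or Lgals3bp.

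**Figure D1:**
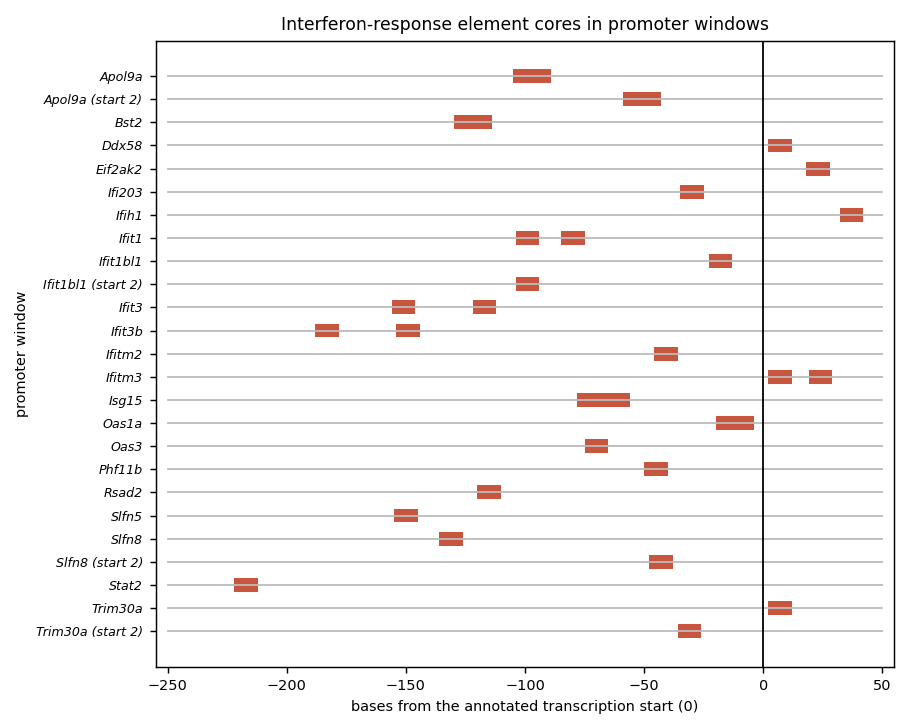
Position of each ISRE core (bars of 10 bases) in promoter windows of interferon-stimulated genes, against the distance in bases from the annotated transcription start at 0; a gene with several annotated starts has a line for each. Cores lay in the last 150 bases before the start in 14 genes, and those of Ddx58, Eif2ak2, Ifih1 and Ifitm3 only after it.

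After pMCAO, the interferon-stimulated genes were lower than after sham surgery in most cases, with a median log2 fold change of −0.38. None passed the test across all genes. Of the 47 genes, 0 were called at an FDR of at most 0.05 by edgeR's quasi-likelihood test with Benjamini-Hochberg adjustment, and of all 16949 genes tested 0 were called (0.0%). The smallest FDR of any gene was 0.922. DESeq2 called 3 genes of all those tested (0.0177%), none of them among the 47. At an unadjusted p under 0.05, edgeR gave 799 genes and DESeq2 1011. The differences described here are therefore levels and fitted values, with no gene shown to change.

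The fitted log2 fold change of pMCAO against sham was below 0 in 43 of the 47 genes (91.5%), compared to 50.6% of all genes tested. It was below −0.5 in 17 (36.2%), compared to 13.6%. At an unadjusted p under 0.05, 11 of the 47 (23.4%) were lower, compared to 2.45% of all genes, and 0 were higher, compared to 2.26%. The groups did not overlap in 2 genes, Oas3 and Ifit1 (4.26%, compared to 0.537% of all genes in that direction), and no gene had every pMCAO library above every sham library (0.448% of all genes). The median log2 fold change was −0.38, with quartiles of −0.61 and −0.21, whereas the median of all genes was −0.0059. Fitted values ranged from −1.67 for Apol9a to 0.32 for Lgals3bp. Without both Xist-positive libraries the median was −0.53, and 17 genes were lower at an unadjusted p under 0.05, compared to 2.04% of the genes tested in those 8 libraries. The groups then did not overlap in 8 of the 47 genes (17%, compared to 1.72% of all genes in that direction), which were Ifit1, Usp18, Oas3, Dhx58, Ifi27l2a, Ifi204, Ifitm3 and Rtp4, and 0 lay in the other direction (1.23% of all genes). For 30 genes, leaving out at least 1 of the libraries on its own moved the log2 fold change by over 1.5 times, but this was so for none of the 11 genes lower at an unadjusted p under 0.05.

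**Figure D2:**
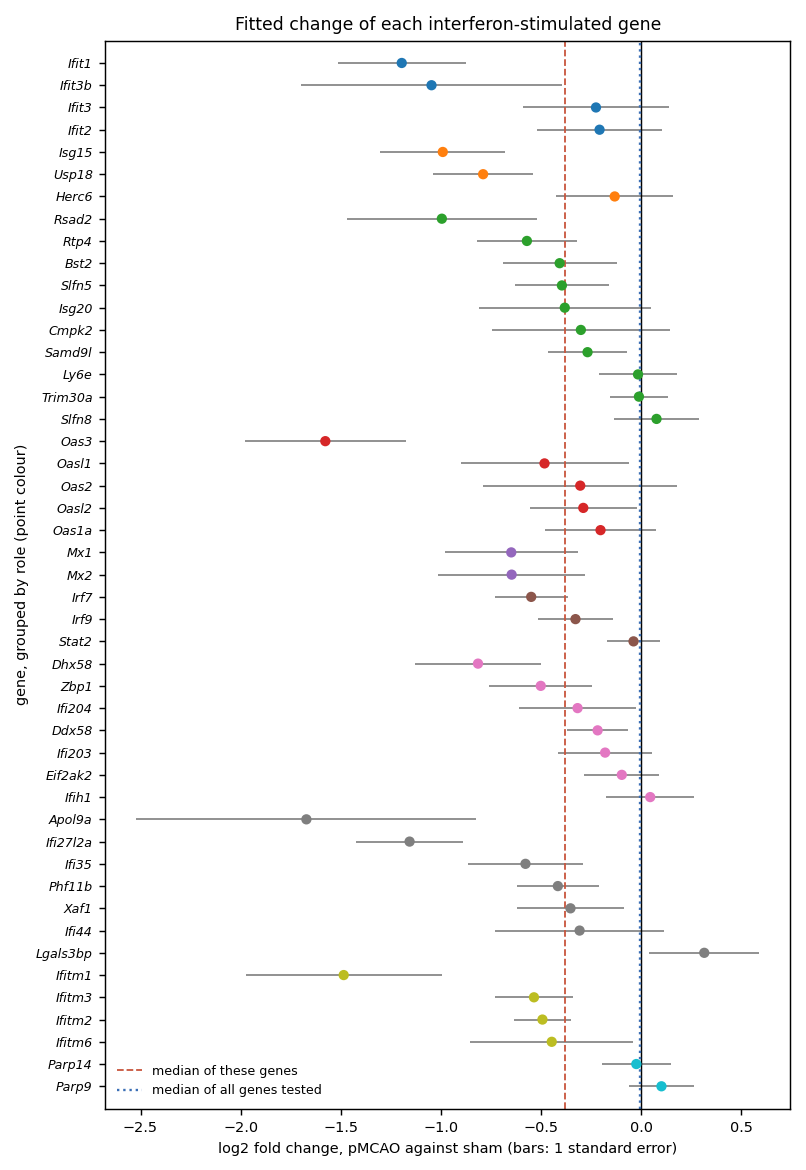
Log2 fold change (x axis) of each of the 47 genes from edgeR, pMCAO against sham, with bars of 1 standard error, grouped and coloured by role. The median of these genes lay at −0.38 (dashed line) and that of all genes tested at −0.0059 (dotted line), and 4 points lie right of 0.

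The libraries differed in how far these genes moved together. The mean log2 CPM over the 47 genes was 5.56, 5.84, 5.96, 5.91 and 5.44 in sham replicates 1 to 5, and 5.12, 5.24, 5.32, 5.54 and 5.15 in pMCAO replicates 1 to 5. The groups overlapped, because sham replicate 5 lay below pMCAO replicate 4, and these are the Xist-positive libraries. Among the other 8 libraries, each sham value was above each pMCAO value. The highest level of a gene was in a sham library for 34 genes and in a pMCAO library for 13, and the lowest was in a pMCAO library for 36 and in a sham library for 11. Sham replicate 4 alone held the highest level of 14 genes, among them Oas2, Oas3, Mx1, Mx2 and Rsad2. It is the shallowest sham library, with 0.524% immunoglobulin counts. Of the 47 genes, 38 were below the sham mean in sham replicates 1 and 5 alike, and 28 to 42 in the pMCAO libraries.

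**Figure D3:**
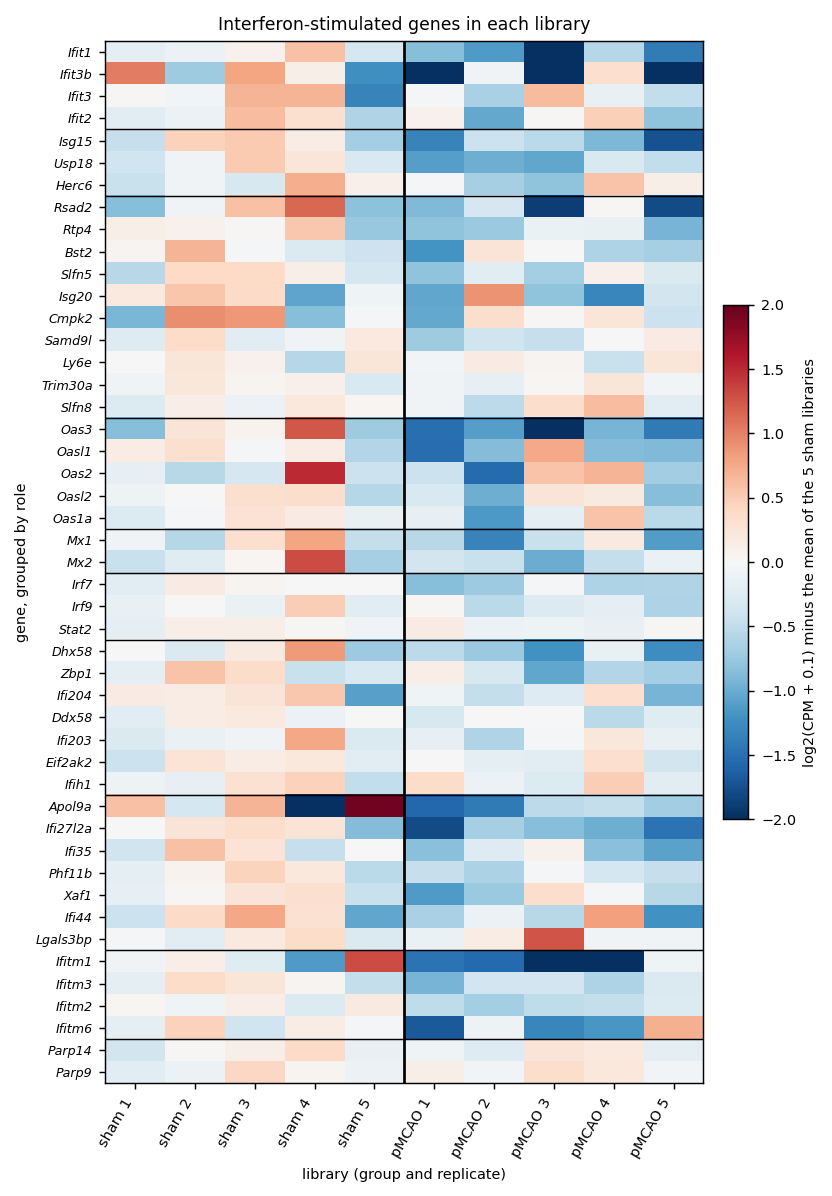
Level of each gene (rows, grouped by role) in each library (columns), as log2(CPM + 0.1) minus the mean of the 5 sham libraries; the colour scale ends at 2 in either direction, with blue below and red above the sham mean. Sham replicate 4 and sham replicate 5 differ from each other in many genes, and the pMCAO columns are mostly blue.

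The transcription factors of the pathway differed among themselves. Irf7, the factor that amplifies interferon production, stood at 36.4, 48.0, 44.1, 42.7 and 42.8 CPM in sham replicates 1 to 5, and at 23.4, 25.6, 41.5, 27.6 and 28.0 CPM in pMCAO replicates 1 to 5. Of the pMCAO libraries, 4 were below every sham library and replicate 3 lay within the sham range. Its mean was 42.8 ± 4.16 CPM (SD, n = 5) in sham and 29.2 ± 7.11 CPM (SD, n = 5) in pMCAO, a log2 fold change of −0.55 ± 0.18 (SE, edgeR unadjusted p = 0.0103, FDR 0.922), and of −0.53 without both Xist-positive libraries.

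Irf9, the DNA-binding subunit of ISGF3, was at 49.1, 54.6, 49.5, 76.5 and 47.2 CPM in sham and at 55.1, 37.6, 45.2, 47.5 and 35.4 CPM in pMCAO libraries. The groups overlapped, with 3 pMCAO values under the sham range. The log2 fold change of Irf9 was −0.33 ± 0.19 (SE, edgeR unadjusted p = 0.105), −0.19 without sham replicate 4 and −0.41 without both Xist-positive libraries. Stat2, the subunit of ISGF3 that activates transcription, was at 77.1, 96.9, 96.0, 90.1 and 84.0 CPM in sham and at 99.1, 81.4, 82.2, 79.8 and 90.3 CPM in pMCAO libraries. It varied least of the 47 genes, with a within-group SD of 0.135 on the log2 scale, and its groups overlapped over almost their whole range. Its log2 fold change was −0.04 ± 0.13 (SE, edgeR unadjusted p = 0.781), and −0.03 without both Xist-positive libraries.

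IFIT proteins bind foreign RNA and block its translation. All 4 measured genes of this family had a log2 fold change below 0, with a median of −0.64, and 1 of them at an unadjusted p under 0.05. For this family and those that follow, the shares of all genes tested were 50.6% below 0 and 2.45% lower at that level. Ifit1, which recognises RNA lacking the methylated cap of host transcripts, was at 19.7, 20.7, 23.9, 33.8 and 17.7 CPM in sham and at 12.5, 10.3, 4.25, 15.1 and 8.47 CPM in pMCAO libraries. Every pMCAO library was below every sham library, with 15.1 and 17.7 CPM the nearest values. Mean levels of Ifit1 were 23.1 ± 6.36 CPM (SD, n = 5) and 10.1 ± 4.11 CPM (SD, n = 5), and the log2 fold change was −1.20 ± 0.32 (SE, edgeR unadjusted p = 0.00275, FDR 0.922). It stayed between −1.39 and −1.01 when any single library was left out, and was −1.48 without both Xist-positive libraries.

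Ifit2 and Ifit3 had smaller log2 fold changes of −0.21 and −0.23, which were −0.03 and −0.06 without sham replicate 3 and −0.55 and −0.43 without both Xist-positive libraries, and Ifit3b had −1.05 with an SE of 0.65. Ifit3 and Ifit3b are neighbouring copies on chromosome 19, and 31.7% of the stretches of 100 nucleotides in Ifit3 also occurred in Ifit3b, so their counts depend on how shared reads were assigned. Their promoters are shown because the same pair of ISRE cores stands in both, and the first 117 bases of these stretches are identical.
Ifit3, chr19:34583363-34583528, plus strand: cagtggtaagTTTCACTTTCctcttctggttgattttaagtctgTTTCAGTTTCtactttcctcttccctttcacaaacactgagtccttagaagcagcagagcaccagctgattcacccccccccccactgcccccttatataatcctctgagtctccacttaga
Ifit3b, chr19:34607759-34607956, plus strand: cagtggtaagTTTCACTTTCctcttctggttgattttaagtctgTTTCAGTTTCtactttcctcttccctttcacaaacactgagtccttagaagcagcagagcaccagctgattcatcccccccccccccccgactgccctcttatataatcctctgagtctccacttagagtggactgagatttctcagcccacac

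The oligoadenylate synthetases (OAS) sense double-stranded RNA and make the messenger that activates RNase L. All 5 genes had a log2 fold change below 0, with a median of −0.30. Oas3, the member that senses long double-stranded RNA, was at 12.5, 27.1, 24.0, 54.0 and 13.8 CPM in sham and at 7.92, 10.6, 4.95, 11.9 and 8.47 CPM in pMCAO libraries. The groups did not overlap, although sham replicates 1 and 5 lay close to the highest pMCAO library. The mean of Oas3 was 26.3 ± 16.7 CPM (SD, n = 5) in sham and 8.77 ± 2.67 CPM (SD, n = 5) in pMCAO, and the log2 fold change was −1.58 ± 0.40 (SE, edgeR unadjusted p = 0.00192, FDR 0.922). The value was −1.15 without sham replicate 4, the highest library, and −1.88 without both Xist-positive libraries.

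Oasl1, which restrains translation of Irf7, had a log2 fold change of −0.48, Oasl2 of −0.29 and Oas1a of −0.20. Leaving out single libraries moved these values, that of Oasl1 to −1.05 without pMCAO replicate 3, that of Oasl2 to −0.46 without pMCAO replicate 3 and −0.15 without pMCAO replicate 2, and that of Oas1a to −0.48 without pMCAO replicate 4 and −0.04 without pMCAO replicate 2. Of the stretches in Oas1a, 40.9% also occurred in Oas1g, and its value is uncertain for that reason. Oas2 was at 168 CPM in sham replicate 4, far above the other sham libraries. Its log2 fold change was −0.30 with all libraries and 0.30 without that one.

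The Mx proteins are GTPases that block viral replication, and laboratory C57BL/6 mice carry a deletion that inactivates Mx1. Mx1 was at 35.7 ± 14.6 CPM (SD, n = 5) in sham and at 22.8 ± 9.79 CPM (SD, n = 5) in pMCAO, and Mx2 at 19.7 ± 13.2 and 12.6 ± 2.58 CPM (SD, n = 5 each). Their log2 fold changes were each −0.65 (edgeR unadjusted p = 0.0748 and 0.102). Mx2 was highest in sham replicate 4, at 42.9 CPM, and its log2 fold change was −0.16 without that library, where that of Mx1 was −0.42.

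Interferon-induced transmembrane (IFITM) proteins hinder fusion of viruses with cell membranes. All 4 genes had a log2 fold change below 0, with a median of −0.51, and 3 of the 4 at an unadjusted p under 0.05. Ifitm2 was at 210, 193, 223, 168 and 232 CPM in sham and at 143, 128, 143, 146 and 169 CPM in pMCAO libraries. Only pMCAO replicate 5 was not below every sham library, and it lay level with sham replicate 4. The log2 fold change of Ifitm2 was −0.49 ± 0.14 (SE, edgeR unadjusted p = 0.00434, FDR 0.922), or −0.45 without both Xist-positive libraries, and 34.9% of its stretches occurred in other genes, most of them in Gm45717.

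Ifitm1 was at 123, 142, 108, 58.3 and 318 CPM in sham and at 46.3, 43.8, 27.0, 29.0 and 121 CPM in pMCAO libraries. Within each group it was highest in replicate 5. Those are also the libraries with the lowest summed level of the 12 macrophage markers in their groups (3300 and 4763 CPM). Several other marker sums were highest there in both groups. These were the sums of the 7 conventional dendritic cell markers (579 and 586 CPM) and the 7 T cell markers (459 and 301.5 CPM). The sum of the stromal and endothelial markers was highest there as well (102 and 86.5 CPM). In sham replicate 5, Itgae alone made up 297 of the 579 CPM. The part of any of these cells in the result was not tested. The log2 fold change was −1.49 ± 0.49 (SE, edgeR unadjusted p = 0.0101, FDR 0.922), and −0.86 without both Xist-positive libraries. Ifitm3, the best known restrictor of influenza virus entry, was at 491 ± 110 CPM (SD, n = 5) in sham and 339 ± 56.8 CPM (SD, n = 5) in pMCAO (log2 fold change −0.54, edgeR unadjusted p = 0.0168). Ifitm6 had a log2 fold change of −0.45 ± 0.41 (SE), with pMCAO replicate 5 above all other libraries at 61.4 CPM, and −0.96 without that library.

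ISG15 is a ubiquitin-like protein, USP18 removes it from its targets and inhibits the interferon receptor, and HERC6 is the main mouse ligase that attaches it. Isg15 was at 23.2, 44.0, 45.9, 35.2 and 19.7 CPM in sham and at 12.6, 23.6, 21.8, 17.1 and 9.42 CPM in pMCAO libraries. The groups overlapped, since sham replicates 1 and 5 lay among the pMCAO values. The mean level of Isg15 after pMCAO was 16.9 ± 6.0 CPM (SD, n = 5) against 33.6 ± 11.9 CPM (SD, n = 5), and the log2 fold change was −0.99 ± 0.31 (SE, edgeR unadjusted p = 0.00775, FDR 0.922), and −1.14 without both Xist-positive libraries.

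Usp18 was at 17.8, 22.4, 33.7, 27.6 and 18.9 CPM in sham and at 10.8, 11.9, 11.3, 18.9 and 16.5 CPM in pMCAO libraries. Only pMCAO replicate 4, a Xist-positive library, was not below every sham library. Its log2 fold change was −0.79 ± 0.25 (SE, edgeR unadjusted p = 0.00783, FDR 0.922), and −1.01 without both Xist-positive libraries. The groups overlapped in Herc6, with 61.3 ± 21.5 CPM in sham, 55.9 ± 21.8 CPM in pMCAO (SD, n = 5 each) and a log2 fold change of −0.13 ± 0.29 (SE), which was −0.35 without both Xist-positive libraries. Of its stretches, 20.9% also occurred in Gm45193.

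Among the 7 genes for nucleic acid sensors and the kinase PKR, 6 had a log2 fold change below 0, with a median of −0.22, and only Dhx58 had an unadjusted p under 0.05. Dhx58, which encodes the regulatory RNA helicase LGP2, was at 25.2 ± 10.7 CPM (SD, n = 5) in sham and 14.3 ± 4.75 CPM (SD, n = 5) in pMCAO, and had a log2 fold change of −0.81 ± 0.32 (SE, edgeR unadjusted p = 0.0239). The signalling helicases differed less. Ddx58, which encodes RIG-I, had a log2 fold change of −0.22, and Ifih1, which encodes MDA5, of 0.05. Zbp1, a sensor of Z-form nucleic acid, had −0.50, the DNA sensors Ifi204 and Ifi203 had −0.32 and −0.18, and Eif2ak2, which encodes PKR, had −0.10. Ifi204 was lowest in sham replicate 5, at 97.6 CPM, and its log2 fold change was −0.69 without both Xist-positive libraries. Of the stretches in Ifi204, 16.8% occurred in other genes, most of them in Ifi211.

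The 10 other antiviral effectors had a median log2 fold change of −0.34, and 9 were below 0. Rtp4, with a log2 fold change of −0.57, was the only member at an unadjusted p under 0.05 (edgeR, 0.0413), and 11.2% of its stretches occurred in Gm45338. Rsad2, which encodes viperin, ranged from 10.5 to 42.1 CPM in sham and from 5.05 to 19.3 CPM in pMCAO libraries, with a log2 fold change of −1.0 ± 0.47 (SE, edgeR unadjusted p = 0.0571), or −0.63 without sham replicate 4. Bst2, which encodes the virion tether tetherin, had −0.41, the nuclease gene Isg20 had −0.38 and Cmpk2, a nucleotide kinase gene next to Rsad2 on chromosome 12, had −0.30. The value of Isg20 was −0.94 without pMCAO replicate 2, that of Cmpk2 −0.05 without sham replicate 2, and that of Bst2 −0.20 without sham replicate 2. Samd9l and Slfn5 had −0.27 and −0.40. Ly6e and Trim30a lay near 0, at −0.02 and −0.01, and these signs changed with scaling.

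Slfn8, a Schlafen gene, was at 102.5, 136, 114, 143 and 127 CPM in sham and at 117, 85.7, 157, 190 and 106 CPM in pMCAO libraries. The pMCAO libraries lay on either side of the sham range, with pMCAO replicates 3 and 4 above it and pMCAO replicate 2 below it. Its log2 fold change was 0.08 ± 0.21 (SE, edgeR unadjusted p = 0.723) and −0.09 without both Xist-positive libraries. The ADP-ribosyltransferases Parp9 and Parp14 had a median log2 fold change of 0.039. Parp9 was at 61.6, 67.1, 96.6, 74.8 and 66.5 CPM in sham and at 78.3, 69.5, 92.2, 83.6 and 70.0 CPM in pMCAO libraries. All pMCAO values of Parp9 lay inside the sham range, and the log2 fold change was 0.10 ± 0.16 (SE, edgeR unadjusted p = 0.541), and 0.04 without both Xist-positive libraries. That of Parp14 was −0.02 ± 0.17 (SE).

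The remaining 7 induced genes have diverse or less well known roles. Ifi27l2a, whose product lies in mitochondria and the nuclear envelope, had the smallest unadjusted p of the 47 genes. It stood at 176, 212, 224, 213 and 96.4 CPM in sham and at 51.0, 111, 97.9, 89.8 and 63.6 CPM in pMCAO libraries. Sham replicate 5 lay within the pMCAO range, and the other 4 sham libraries were above all pMCAO libraries. The mean of Ifi27l2a was 184 ± 52.4 CPM (SD, n = 5) in sham and 82.7 ± 24.8 CPM (SD, n = 5) in pMCAO. The log2 fold change was −1.16 ± 0.27 (SE, edgeR unadjusted p = 0.000896, FDR 0.922), and −1.35 without both Xist-positive libraries.

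Lgals3bp, which encodes a secreted galectin-binding glycoprotein, had the highest log2 fold change of the 47 genes. It was at 157, 137, 185, 208 and 132 CPM in sham and at 148, 178, 386, 154 and 153 CPM in pMCAO libraries. Only pMCAO replicate 3 lay above the sham range. The log2 fold change of 0.32 ± 0.27 (SE, edgeR unadjusted p = 0.273) was −0.06 without that library and 0.33 without both Xist-positive libraries. Apol9a had the lowest fitted log2 fold change, −1.67 ± 0.85 (SE), but its counts were as few as 1 in a library and its sham values ranged from 0.063 to 4.35 CPM. Ifi35, Phf11b, Xaf1 and Ifi44 had log2 fold changes of −0.58, −0.42, −0.35 and −0.31, and that of Ifi44 was −0.73 without pMCAO replicate 4 and −0.09 without sham replicate 3. Of the stretches in Phf11b, 13.8% occurred in other genes.

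**Figure D4:**
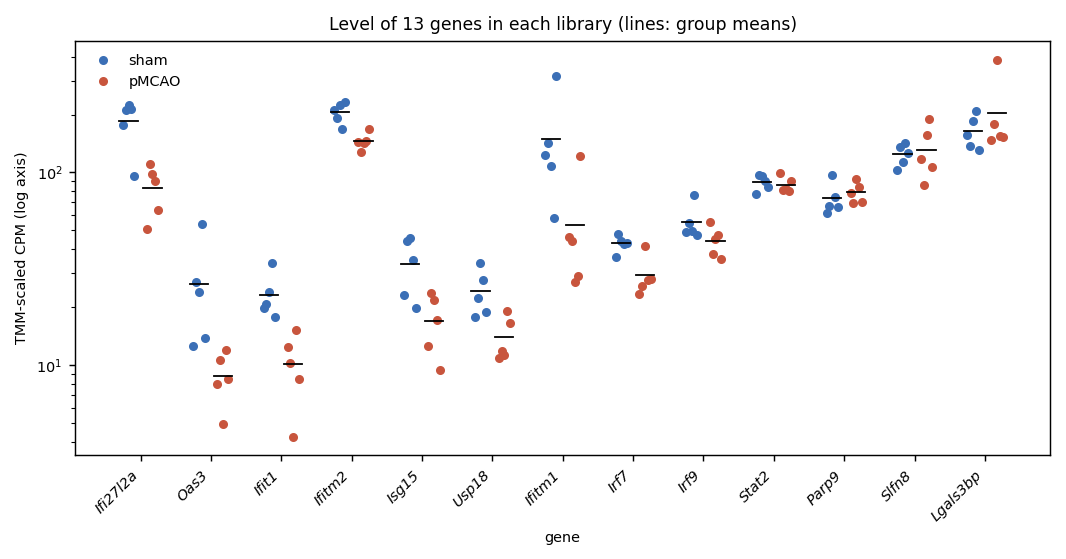
Level of 13 genes (x axis) in each library as TMM-scaled CPM on a log axis, with a point per library (blue sham, red pMCAO, replicates 1 to 5 from left to right) and a line at each group mean. The groups of Oas3 and Ifit1 do not overlap, while those of Stat2, Parp9, Slfn8 and Lgals3bp do.

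Per kilobase of transcript, the genes spanned a wide range of sham levels. Ifitm3 had the highest, with a mean of 724 CPM per kb, followed by Ifi27l2a with 398, Ly6e with 350 and Ifitm2 with 313 CPM per kb. The lowest were Apol9a and Cmpk2 with 0.406 and 2.37 CPM per kb. The 23 shorter genes had a median log2 fold change of −0.49 and the 24 longer ones of −0.28, relative to a median transcript length of 3123 nucleotides. With offsets that removed each library's trend with transcript length, these medians were −0.38 and −0.26, and that of all 47 genes was −0.32. The median within-group SD of the 47 genes was 0.472 on the log2 scale, compared to 0.575 for all genes tested, with Apol9a the most variable at 1.34.

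The difference was also read against the promoter windows. The 20 tested genes with a core had a median log2 fold change of −0.40, with 18 below 0, and the 15 with an entry but no core had −0.33, with 14 below 0. Among all genes tested with a promoter entry, the medians were −0.044 for the 420 with a core and −0.013 for the 10067 without. Of these, 232 with a core and 5194 without were below 0.

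The genes upstream of this response were examined from a list of 44 interferon pathway genes, of which 25 were tested, 11 with a log2 fold change below 0 and 14 above it, with a median of 0.031. Of all genes tested, 50.6% lay below 0, with a median of −0.0059. Of the 18 type I interferon ligand genes, only Ifnk was listed, at 0 to 2.86 CPM in sham and 0 to 3.53 CPM in pMCAO libraries. The receptor genes were present in all libraries. Ifnar1 was at 213 ± 30.6 CPM (SD, n = 5) in sham and 208 ± 15.3 CPM (SD, n = 5) in pMCAO, a log2 fold change of −0.03 ± 0.14 (SE). Ifnar2 was at 59.4 ± 7.89 and 72.6 ± 12.6 CPM (SD, n = 5 each), with 0.29 ± 0.16 (SE, edgeR unadjusted p = 0.103). The kinases Jak1 and Tyk2 had log2 fold changes of −0.07 and 0.03, each with an SE of 0.15.

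Tlr3, a sensor of double-stranded RNA chosen after its values were seen, was the 1 pathway gene at an unadjusted p under 0.05. It lay on the higher side, as did 2.26% of all genes at that level. It was at 37.2, 34.1, 41.0, 29.6 and 30.9 CPM in sham and at 52.2, 51.4, 58.8, 59.97 and 39.2 CPM in pMCAO libraries. Of the pMCAO libraries, 4 lay above every sham library and replicate 5 within the sham range, and the log2 fold change of Tlr3 was 0.60 ± 0.17 (SE, edgeR unadjusted p = 0.00368, FDR 0.922). Its highest value was in pMCAO replicate 4, a Xist-positive library, and no fold change without both Xist-positive libraries is given for it.

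Of 59 further interferon-stimulated genes, among them targets of type II interferon, 50 were tested. Their log2 fold change was below 0 in 35 and above in 15, compared to 50.6% of all genes below 0. The median was −0.19, compared to −0.0059 for all genes. At an unadjusted p under 0.05, 1 was lower and 0 were higher, compared to 2.45% and 2.26% of all genes. The 1 lower gene was Nmi, an adaptor of STAT proteins, at 36.5 ± 5.53 CPM (SD, n = 5) in sham and 24.5 ± 5.91 CPM (SD, n = 5) in pMCAO (log2 fold change −0.57, edgeR unadjusted p = 0.0147). The chemokine gene Cxcl10 had −0.86 (edgeR unadjusted p = 0.0511) and the GTPase gene Ifi47 −0.52 (edgeR unadjusted p = 0.0578). None of the 50 passed the FDR limit.

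Markers of the cell types that the sort could hold are given beside these values. For comparison, 50.6% of all genes tested had a log2 fold change below 0. At an unadjusted p under 0.05, 2.45% of all genes were lower and 2.26% higher. The summed level of 12 macrophage markers was 3300 to 9534 CPM in sham and 4763 to 10390 CPM in pMCAO libraries. Plasmacytoid dendritic cells, known for producing type I interferon, had summed marker levels of 312 to 766 and 364 to 707 CPM over 7 genes, 5 of them with a log2 fold change below 0. At an unadjusted p under 0.05, 0 of these were lower and 1 was higher, Tcf4, the factor that sets this lineage, named after its values were seen (log2 fold change 0.44, edgeR unadjusted p = 0.0237). Tcf4 alone was at 226 to 322 CPM in sham and 295 to 450 CPM in pMCAO libraries, a large part of the summed levels. Siglech, another of the 7, was at 13.8 to 218 and 8.65 to 161 CPM. Classical monocyte markers summed to 799 to 2573 and 823 to 1813 CPM, and 2 of 8 were lower and 0 higher at an unadjusted p under 0.05. Of these 8 markers, 5 had a log2 fold change below 0 and 3 above it. Nonclassical monocyte markers summed to 344 to 618 and 295 to 448 CPM, and 2 of 7 were lower and 1 higher at that level. Of the 7, 5 had a log2 fold change below 0 and 2 above it. Gngt2, named after its values were seen, was at 118 ± 18.8 CPM (SD, n = 5) in sham and 62.9 ± 19.3 CPM (SD, n = 5) in pMCAO (log2 fold change −0.92, edgeR unadjusted p = 0.000821, FDR 0.922). The other lower marker was Ace (log2 fold change −0.89, edgeR unadjusted p = 0.0372), and the higher one was Pou2f2 (0.45, edgeR unadjusted p = 0.0205). All 7 T cell markers had a log2 fold change below 0, with a median of −0.64, and 0 at that level. Conventional dendritic cell markers summed to 239 to 579 and 196 to 586 CPM, and B cell and plasma cell markers to 3426 to 95630 and 4445 to 110900 CPM. Neutrophil, eosinophil, epithelial, stromal and erythroid sums overlapped between the groups as well. A row was found for 4 of 6 neutrophil, 4 of 5 eosinophil and 2 of 4 erythroid markers. The part of these cell types in the lower levels of interferon-stimulated genes was not tested.

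**Figure D5:**
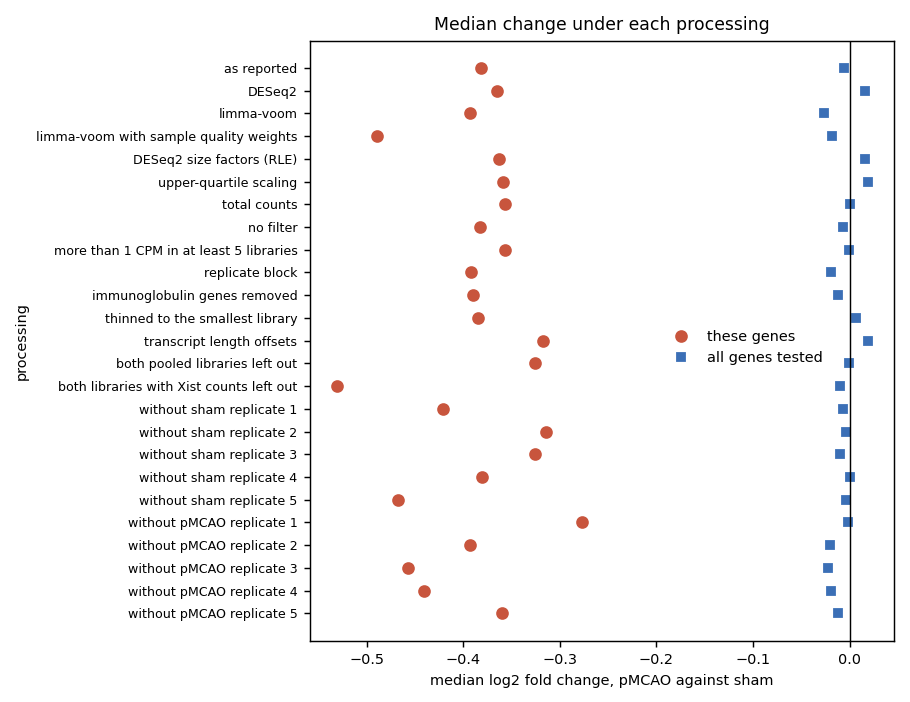
Median log2 fold change (x axis) of the interferon-stimulated genes (circles) and of all genes tested (squares) as reported and under each of 24 other ways of processing (y axis). The median of the interferon-stimulated genes lay between −0.53 and −0.28 under all of these, and that of all genes tested near 0.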

How the data were processed

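Whole-number counts per gene, not normalized, are in the deposited table beside CPM computed by the authors, which are the same counts scaled to the library total over the listed genes. Their columns of log2 fold change, mean log2 expression, p-value and FDR were not used. The submitters' processing notes name GRCm38, STAR, featureCounts and limma; versions and strandedness are not given in the sources used here, so reads of overlapping antisense genes (Dhx58os, Slfn5os) and of Dtx3l beside Parp9 cannot be told apart. Every listed gene had 10 counts or more in 2 libraries.

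Counts were filtered with filterByExpr, scaled by TMM and compared by edgeR 4.0.16 (quasi-likelihood, R 4.3.3) with no covariate. CPM in the text are TMM-scaled, except those of Xist, which were scaled to the library total alone. Library means of log2 CPM use a prior count of 2. The tests were also run on simulated data, in which the changed genes differed by more than any interferon-stimulated gene here. That run does not show whether changes of the sizes reported here would be found. No libraries were repeats (chi-square per degree of freedom at least 39.2).

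Alternatives used DESeq2 1.42.0 and limma 3.58.1. Transcript length and shared stretches of 100 nucleotides come from the longest GENCODE M21 transcript. Where the labels do not say that replicates are separate mice, p-values measure only the spread between libraries.

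The members, lists and their roles were chosen with earlier results of these data known. Values in every library are given for the 8 members of smallest unadjusted p, the 3 of highest log2 fold change, any whose groups do not overlap, and Stat2, Irf7 and Irf9. The receptors, kinases, listed ligands and the 3 further interferon-stimulated genes of smallest unadjusted p are also named. A gene that the full rule also gives is not reported here.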

Additional observations from a re-analysis of the deposited data

Results flagged for a closer look

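In each group of 5 libraries, levels were compared on the log2 scale. The gap between an extreme library and its nearest neighbour was divided by the range of the group, and values above 0.71 are given here. Of 96 groups examined, 5 passed, and chance alone would give about 4.8. Sham replicate 4 was far above the other sham libraries in Oas2 (ratio 0.805, at 168 CPM) and in Ifi203 (ratio 0.783, at 653 CPM). Sham replicate 5 was far below the other sham libraries in Ifi27l2a (ratio 0.714, at 96.4 CPM) and in Ifi204 (ratio 0.760, at 97.6 CPM). pMCAO replicate 3 was far above the other pMCAO libraries in Lgals3bp (ratio 0.803, at 386 CPM).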

How the results depend on the processing

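Under 24 alternatives, no interferon-stimulated gene was called, and the smallest FDR of any of them was 0.0946 (Ifi27l2a, DESeq2). DESeq2 called 3 genes of all those tested, and the other alternatives 0. The median log2 fold change lay between −0.47 and −0.28 when a library was left out and between −0.53 and −0.32 otherwise. The number lower at an unadjusted p under 0.05 was 10 to 16 when a library was left out, 9 with transcript length offsets, and 17 instead of 11 with limma-voom with sample quality weights, with the replicate number as a block and without both Xist-positive libraries. The share of all genes lower at that level was 1.85% to 4.19% when a library was left out. It was 1.96%, 6.50%, 4.09% and 2.04% in the other settings just named, in that order, compared to 2.45% as reported. Same-numbered libraries did not deviate together in every pair (correlations of −0.0055 to 0.372, with 2 of 5 highest for their own number), so the numbers were not taken as pairs, although immunoglobulin shares were alike within every number but 3 (4.61% and 5.42%, 14.1% and 16.7%, 5.56% and 0.847%, 0.524% and 0.781%, 4.13% and 4.72%); with the replicate block the median was −0.39, 0 genes were called, the smallest FDR was 0.173 (Ifitm1) and 1303 genes had an unadjusted p under 0.05. A direction was kept in 37 genes under all alternatives run, and 10 genes near 0 or led by 1 library changed sign at least once; the cause was not tested. Trim30a became 0.012 with DESeq2 and with its size factors, 0.021 with upper-quartile scaling, 0.020 with total counts, 0.0012 with more than 1 CPM in at least 5 libraries and 5.0e-05 after thinning to the smallest library. Ly6e became 0.0055 with DESeq2 and with its size factors, 0.0049 with upper-quartile scaling, 0.0075 after thinning, 0.071 with transcript length offsets and 0.13 without both Xist-positive libraries. Stat2 became 0.016 with quality weights and 0.0042 after thinning, Herc6 0.10 with quality weights, and Parp14 0.0043 with upper-quartile scaling and 0.0063 after thinning. Ifih1 became −0.0080 with length offsets, −0.069 without both pooled libraries and −0.19 without both Xist-positive libraries, where Slfn8 became −0.091. With a library left out, the ranges were −0.57 to 0.30 for Oas2 (positive only without sham replicate 4), −0.29 to 0.063 for Ifi203, −0.36 to 0.087 for Herc6, −0.081 to 0.16 for Ifih1, −0.055 to 0.41 for Lgals3bp (negative only without pMCAO replicate 3), −0.14 to 0.070 for Ly6e, −0.11 to 0.072 for Parp14, −0.10 to 0.20 for Slfn8 and −0.087 to 0.049 for Trim30a. Apol9a was not tested after thinning or above 1 CPM in at least 5 libraries. Few counts limit Apol9a and Ifit3b, which had as few as 1 and 10 in a library.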
